A study of Mus musculus with 18 samples.

Results

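The genes described here are 10 FGF genes grouped under the name FGF ligands and receptors of bone, though not all are known mainly from bone. The ligands are Fgf2, Fgf7, Fgf9, Fgf10, Fgf18 and Fgf23, and the receptors are Fgfr1, Fgfr2, Fgfr3 and Fgfr4. The 10 genes were taken by symbol from a table of 43346 mouse genes, and all have a row in it, with positions in mouse build mm10. Their RNA was measured in MC3T3-E1 subclone 4 cells, a clonal line of pre-osteoblasts from C57BL/6 mouse calvaria, used at passage 9 and kept for 3 days in osteogenic medium with ascorbic acid and a phosphate donor. The treated arm received 2.5 µM EPZ6438, an inhibitor of EZH2, the enzyme that places the repressive mark H3K27me3, and the control arm received 0.25% DMSO, its vehicle. Whether the treated medium also held DMSO is not in the labels. RNA came from 3 libraries per arm. H3K27me3 and H3K4me3, a mark of promoters in use, were mapped by chromatin immunoprecipitation in 2 samples per mark and arm, of which 1 merged list of peaks per mark and arm was analysed here.

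FGFs are secreted ligands that bind receptor tyrosine kinases together with heparan sulphate or, for the hormone FGF23, with a Klotho protein, and the receptors signal mainly through FRS2, RAS and the ERK kinases. In the skeleton FGF18 and FGF9 act on cartilage and bone-forming cells, FGF2 is made by osteoblasts and stored in matrix, and FGF23 is released by osteocytes to control phosphate handling in the kidney. FGF7 and FGF10 are mesenchymal ligands that act mostly on epithelia through the IIIb splice form of FGFR2. FGFR1 and FGFR2 are the receptors of the osteoblast lineage, activating mutations in human FGFR2 cause craniosynostosis, and FGFR3 restrains growth plate chondrocytes.

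The promoter sequences of 4 genes are shown first, as examples chosen with their RNA and peak values known. The arms also differed in peaks at or near others of the 10 genes. For 9 of the 10 genes RefSeq gives a promoter window of 300 bases, from 250 before the start site to 50 after it, in build GRCm38.p6. The 250 bases before the start are printed 5′ to 3′ along the gene, with each CG dinucleotide in capitals. The Fgf7 stretch is chr2:126034408-126034657 on the plus strand, Fgf18 is chr11:33147401-33147650 on the minus strand, Fgfr3 is the first of its 2 windows, chr5:33721474-33721723 on the plus strand, and Fgf23 is chr6:127072652-127072901 on the plus strand.
Fgf7: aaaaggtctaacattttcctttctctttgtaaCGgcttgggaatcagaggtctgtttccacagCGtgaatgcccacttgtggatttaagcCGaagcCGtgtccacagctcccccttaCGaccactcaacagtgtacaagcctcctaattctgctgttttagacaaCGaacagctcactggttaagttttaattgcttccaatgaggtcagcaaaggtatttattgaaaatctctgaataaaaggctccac
Fgf18: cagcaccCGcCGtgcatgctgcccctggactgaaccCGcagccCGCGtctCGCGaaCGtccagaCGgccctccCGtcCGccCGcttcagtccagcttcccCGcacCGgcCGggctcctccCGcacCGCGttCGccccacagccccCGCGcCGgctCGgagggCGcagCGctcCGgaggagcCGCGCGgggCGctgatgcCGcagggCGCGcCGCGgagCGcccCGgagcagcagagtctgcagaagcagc
Fgfr3: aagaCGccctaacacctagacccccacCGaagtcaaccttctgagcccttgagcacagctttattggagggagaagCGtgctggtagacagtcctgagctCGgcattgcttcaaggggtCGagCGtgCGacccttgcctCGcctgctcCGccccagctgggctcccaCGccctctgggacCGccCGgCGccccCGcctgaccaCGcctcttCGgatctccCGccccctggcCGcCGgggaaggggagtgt
Fgf23: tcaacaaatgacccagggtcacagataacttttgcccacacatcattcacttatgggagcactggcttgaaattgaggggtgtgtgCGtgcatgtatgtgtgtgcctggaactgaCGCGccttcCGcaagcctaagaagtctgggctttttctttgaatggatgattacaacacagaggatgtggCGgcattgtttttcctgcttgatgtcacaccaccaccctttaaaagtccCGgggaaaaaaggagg
The whole Fgf18 window held 47 CG dinucleotides, an observed over expected ratio of 1.02, and the first Fgfr3 window held 26, a ratio of 0.726. The Fgf7 window held 11, a ratio of 0.720 in a sequence poorer in C and G, and the Fgf23 window held 6, a ratio of 0.333. The median of all 32851 RefSeq windows was 7 CG dinucleotides and a ratio of 0.384, so Fgf23 lay below the median and the other 3 above it. In the windows of the genes not printed the ratio was 0.842 for Fgf2, 0.880 for Fgf9, 0.394 for Fgf10, 0.282 for Fgfr2 and 0.649 for Fgfr4. A relation of this ratio to RNA level was not tested.

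The table gives RPKM, a read density scaled to gene length and to library depth, so the levels of different genes are set side by side per length below. The libraries held 18807156 to 25365513 reads in genes. Runx2 and Sp7, the transcription factors that define osteoblasts, were well detected, at 45.8 ± 3.05 and 102 ± 3.25 RPKM in EPZ6438 against 30.4 ± 1.59 and 54.1 ± 1.62 RPKM in DMSO (SD, n = 3 each), and both rose (limma adjusted p = 0.00813 and 0.000704). Col1a1, the main collagen of bone, averaged 2955 ± 602 RPKM in EPZ6438 and 2169 ± 860 RPKM in DMSO and did not pass. Of 8 osteoblast markers 5 rose and 1 fell, while over all tested genes 3.8% rose and 3.24% fell. Markers of fat, endothelial and epithelial cells each summed to at most 0.629 RPKM in any library. Blood cell markers summed to 18.6 to 21.3 RPKM in EPZ6438 and 15.5 to 18.4 RPKM in DMSO, so not all were absent, with Ptprc, which defines leukocytes, at or near 0. Of these 6 markers 2 were tested and did not pass, with a median log2 difference of 0.24. The labels do not say that the 3 libraries of an arm came from separate cultures, so p-values measure the spread between these libraries, which may be technical.

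EPZ6438-treated cells held less Fgf7 RNA, and no other of the 10 genes passed the test. Fgf7 was the most abundant ligand in both arms and averaged 0.516 times its DMSO level after EPZ6438. All 3 receptors with enough reads to test, and Fgf18, were higher in every EPZ6438 library than in any DMSO library, by 0.18 to 0.68 on the log2 scale, yet missed the threshold. The test was limma with an empirical Bayes trend, two-sided, on log2(RPKM + 0.1), with Benjamini-Hochberg adjustment over 14213 genes and a threshold of 0.05. Of the 10 genes 6 had at least 10 reads in at least 3 libraries and were tested: 0 rose, 1 fell and 5 did not pass. Over all tested genes 7.04% were called, 3.8% as rises and 3.24% as falls, and with 6 genes tested 1 call is not read as a result about the group. Without adjustment 5 of the 6 had a p under 0.05, against 20.6% of all tested genes. In 5 of the 6 the libraries of the arms did not overlap, against 26.7% of all tested genes: 4 with EPZ6438 higher (12% of all) and 1 with EPZ6438 lower (14.7% of all). The median log2 change of the 6 was 0.24, and that of all tested genes was -0.03. RNA from whole cultures cannot tell fewer cells that express a gene from less RNA per cell.

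**Figure D1:**
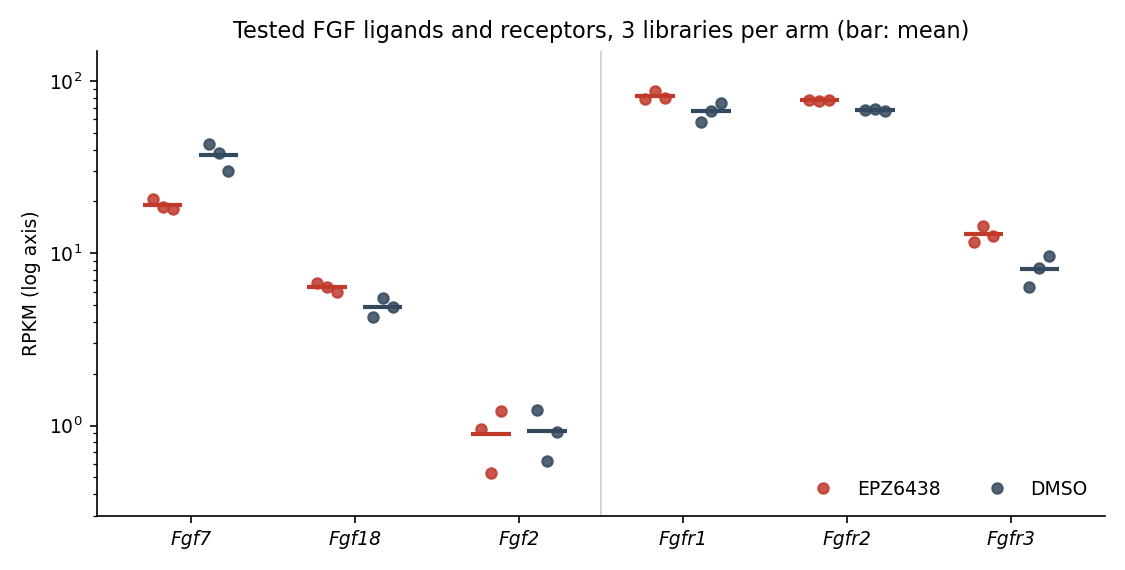
RPKM of the 6 tested FGF genes on a log axis, with ligands left of the grey line and receptors right of it; points are libraries, 3 in EPZ6438 (red, left of each pair) and 3 in DMSO (blue), and bars are means. Fgf7 is the gene whose EPZ6438 points, 18.2 to 20.8 RPKM, all lie below its DMSO points, 30.0 to 43.3 RPKM.

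Fgf7 encodes keratinocyte growth factor, which mesenchymal cells make for neighbouring epithelia. Its gene (ENSMUSG00000027208) lies at chr2:126034658-126091185. It had 20.8, 18.7 and 18.2 RPKM in EPZ6438 libraries 1, 2 and 3, against 43.3, 38.3 and 30.0 RPKM in DMSO libraries 1, 2 and 3. The 3 treated libraries lay close together below all controls, and the controls spread more widely, with DMSO library 3 the lowest of them. The means were 19.2 ± 1.39 RPKM in EPZ6438 and 37.2 ± 6.73 RPKM in DMSO (SD, n = 3 each), a log2 change of -0.94 (SE 0.14, 95% interval -1.27 to -0.61, limma adjusted p = 0.010). By size this was fall number 120 of 461. In EPZ6438 75.9% of tested genes had a lower mean than Fgf7, against 88.5% in DMSO. The adjusted limma p was 0.0594 without EPZ6438 library 3 and 0.0590 without DMSO library 2, with log2 changes of -0.90 and -0.91, and it ranged from 0.00257 to 0.0594 over 14 alternatives, 12 of them past the threshold. The summed level of 5 smooth muscle and myofibroblast markers, most of it Acta2, was 1625 to 1649 RPKM in EPZ6438 and 2157 to 2296 RPKM in DMSO, and of the 4 tested Acta2 fell, Des rose and 2 did not pass; their part in the Fgf7 result was not tested. A gene on the same stretch, Fam227b, had 2 reads in all EPZ6438 libraries together and 2 in all DMSO libraries.

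Fgf18 encodes a ligand that promotes osteoblast formation and restrains chondrocyte proliferation in mouse development. Its gene (ENSMUSG00000057967) lies at chr11:33117430-33147400 on the minus strand. It had 6.72, 6.38 and 5.97 RPKM in the EPZ6438 libraries, against 4.30, 5.49 and 4.88 RPKM in the DMSO libraries. Each treated library was above each control, but the gap between the nearest, 5.97 and 5.49 RPKM, was small. The means were 6.36 ± 0.376 RPKM in EPZ6438 and 4.89 ± 0.598 RPKM in DMSO (SD, n = 3 each), a log2 difference of 0.38 (SE 0.12, 95% interval 0.09 to 0.67) that did not pass (limma adjusted p = 0.131).

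Fgf2 encodes basic FGF, a mitogen of osteoprogenitors. Its row (ENSMUSG00000037225, chr3:37312519-37405377) overlaps 5 other rows, among them the antisense gene Nudt6, and no source used here says whether counting used strand, so shared reads cannot be told apart. It had 0.949, 0.529 and 1.22 RPKM in the EPZ6438 libraries, against 1.24, 0.624 and 0.919 RPKM in the DMSO libraries. The arms overlapped fully, and library 2 was the lowest of each. The means were 0.899 ± 0.348 RPKM in EPZ6438 and 0.927 ± 0.308 RPKM in DMSO, a log2 difference of -0.06 whose 95% interval runs from -0.84 to 0.72 (SE 0.33, limma adjusted p = 0.942). The interval leaves room for changes in either direction, and the sign turned when EPZ6438 library 2 (0.24) or DMSO library 1 (0.15) was left out. Nudt6 averaged 1.94 ± 0.501 RPKM in EPZ6438 and 1.61 ± 0.136 RPKM in DMSO and did not pass (limma adjusted p = 0.562).

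The other 3 ligands were barely or not detected. Fgf9, a ligand of cartilage and early bone at chr14:58070547-58112337, had 1, 1 and 0 reads in the EPZ6438 libraries against 0, 1 and 2 reads in the DMSO libraries. Fgf10, the limb bud and lung ligand at chr13:118669791-118792115, and Fgf23, the phosphate hormone at chr6:127072902-127081408, had 0 reads in all 6 libraries. A count of 0 allows up to 3 reads per library, which is 0.0257 to 0.0347 RPKM for Fgf10 and 0.0652 to 0.0879 RPKM for Fgf23. For Fgf23 these limits, which cover counting error only, are of interest because osteocytes are its usual source. Markers of that cell type summed to 27.5 to 32.6 RPKM in EPZ6438 and 43.2 to 53.6 RPKM in DMSO. Of the 4 tested markers 1 rose (Mepe) and 1 fell (Pdpn), and Sost, the defining gene of mature osteocytes, had 0 reads in every library. The lower sum was not shared by all 4: their median log2 change was 0.17. Without overlap between the arms, 2 of them were higher in EPZ6438 and 1 was lower. Over all tested genes these shares were 12% and 14.7%, and 3.8% were called as rises and 3.24% as falls. With 4 markers tested, the counts are not read as a result about osteocyte markers.

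Among the receptors, Fgfr1 and Fgfr2 stood at nearly the same level and Fgfr3 well below them. Fgfr1 (ENSMUSG00000031565, chr8:25513654-25575714), the receptor of osteoprogenitors and mature osteoblasts, had 79.1, 88.1 and 79.5 RPKM in the EPZ6438 libraries, against 58.0, 67.4 and 74.8 RPKM in the DMSO libraries. The controls spread widely, and the highest of them, DMSO library 3, ended just below the treated libraries. The means were 82.2 ± 5.07 RPKM in EPZ6438 and 66.7 ± 8.43 RPKM in DMSO (SD, n = 3 each), a log2 difference of 0.31 (SE 0.11, 95% interval 0.05 to 0.56) that did not pass (limma adjusted p = 0.158).

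Fgfr2 (ENSMUSG00000030849), a receptor of the osteoblast lineage, had 77.2, 76.4 and 77.8 RPKM in the EPZ6438 libraries, against 68.2, 69.0 and 67.1 RPKM in the DMSO libraries. Replicates were tighter than for any other tested FGF gene, and the arms were clearly apart by a small amount. The means were 77.2 ± 0.697 RPKM in EPZ6438 and 68.1 ± 0.970 RPKM in DMSO (SD, n = 3 each), a log2 difference of 0.18 (SE 0.06, 95% interval 0.03 to 0.33) that did not pass (limma adjusted p = 0.155). The table places Fgfr2 at chr7:130162451-133123350, a span of 2961 kb that overlaps 43 other rows, whereas RefSeq gives it 104 kb, so reads of those other genes could be split or shared with it. Since the table counts genes, the epithelial and mesenchymal splice forms of Fgfr2, which decide whether it answers to FGF7, are summed in these values.

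Fgfr3 (ENSMUSG00000054252, chr5:33721724-33737068), the receptor whose activation slows growth plate cartilage, had 11.6, 14.4 and 12.6 RPKM in the EPZ6438 libraries, against 6.39, 8.18 and 9.68 RPKM in the DMSO libraries. All treated libraries were above all controls, and DMSO library 3 was the control nearest to them. The means were 12.9 ± 1.39 RPKM in EPZ6438 and 8.08 ± 1.65 RPKM in DMSO (SD, n = 3 each), a ratio of 1.59 and the largest log2 difference upwards among the 10 genes, 0.68 (SE 0.16, 95% interval 0.29 to 1.07). It missed the threshold (limma adjusted p = 0.0541) and passed it in 3 of 14 alternatives, with p from 0.0233 to 0.187 over all of them: voom on recovered reads gave 0.0276, a replicate block gave 0.0236, and leaving out DMSO library 3 gave 0.0233 with a log2 change of 0.82. The summed level of 6 chondrocyte markers was 83.5 to 113 RPKM in EPZ6438 and 15.3 to 26.2 RPKM in DMSO. Nearly all of this difference was Col2a1: it rose, at 91.0 ± 14.9 RPKM in EPZ6438 and 14.6 ± 4.07 RPKM in DMSO. The 2 other tested markers did not pass and had log2 differences of -0.15 (Sox9) and -0.07 (Comp), the median of the 3 was -0.07, and Acan was at 0 in every library. The part of Col2a1-expressing cells in the Fgfr3 difference was not tested.

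Fgfr4 (chr13:55152640-55168759), a receptor known best from liver and muscle, had 2, 4 and 0 reads in the EPZ6438 libraries against 5, 1 and 3 reads in the DMSO libraries, at or near the limit of 3 reads, and was not tested. In EPZ6438 the order of mean levels was Fgfr1, Fgfr2, Fgf7, Fgfr3, Fgf18 and Fgf2, and no 2 neighbours of these 6 overlapped between libraries. In DMSO the order was Fgfr2, Fgfr1, Fgf7, Fgfr3, Fgf18 and Fgf2, with the libraries of Fgfr2 and Fgfr1 overlapping and no other neighbours. In both arms Fgfr4 and Fgf9 overlapped each other at the lower end.

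Summed over the 4 receptors the level was 172 ± 5.84 RPKM in EPZ6438 and 143 ± 9.60 RPKM in DMSO, and summed over the 6 ligands it was 26.5 ± 1.73 RPKM in EPZ6438 and 43.0 ± 6.63 RPKM in DMSO (SD, n = 3 each), with no overlap between arms in either sum. Fgf7 made up 72.5 ± 0.758% of the ligand sum in EPZ6438 and 86.2 ± 2.45% in DMSO. Within the receptor sum the shares of Fgfr1 and Fgfr2 overlapped between the arms. Fgfr1 made up 47.7 ± 1.33% in EPZ6438 and 46.6 ± 2.81% in DMSO, a difference of 1.13 percentage points (exact permutation p = 0.5, two-sided) that was -0.29 without DMSO library 1, 0.36 without EPZ6438 library 2 and 2.53 without DMSO library 3. Fgfr2 made up 44.8 ± 1.83% in EPZ6438 and 47.8 ± 3.58% in DMSO, a difference of -2.96 points (exact permutation p = 0.3) that was -1.16 without DMSO library 1, -1.90 without EPZ6438 library 2 and -4.74 without DMSO library 3. Fgfr3 made up 6.93%, 8.04% and 7.44% in the EPZ6438 libraries, against 4.82%, 5.66% and 6.38% in the DMSO libraries, and it was the only one of the 4 receptors whose shares did not overlap. Its difference of 1.85 points had an exact permutation p of 0.1, the smallest that 3 against 3 allows, and 0.4 after adjustment over the 4 receptors, so this design cannot reach the threshold.

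**Figure D2:**
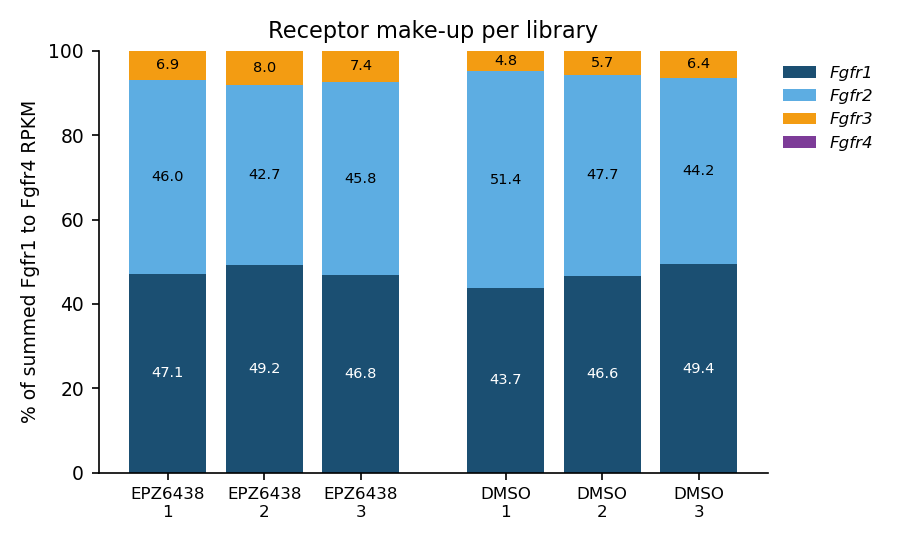
Share of each receptor in the summed RPKM of Fgfr1 to Fgfr4, in percent, with 1 stacked bar per library, EPZ6438 left and DMSO right. Fgfr3, in orange, takes 6.9 to 8.0% in EPZ6438 and 4.8 to 6.4% in DMSO, and Fgfr4 is too low to be seen.

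Of 67 further pathway genes in 4 lists 66 were in the table (Spry3 was not), 48 were tested, 2 rose, 2 fell and 44 did not pass, a share of calls near the background of 7.04%. Among 15 receptor cofactors and ligand binders 12 were tested, with 1 rise, no fall and a median log2 change of 0.02. The rise was Sdc4, a heparan sulphate proteoglycan of the cell surface, with 59.0, 60.4 and 61.1 RPKM in EPZ6438 against 44.1, 50.1 and 45.9 RPKM in DMSO (log2 change 0.37, SE 0.07, limma adjusted p = 0.0316). This call was lost in 6 of 14 alternatives, with an adjusted p of 0.0546 to 0.166 when any EPZ6438 library or DMSO library 2 or 3 was left out. Kl and Klb, the Klotho coreceptors of the hormone FGFs, had 1 read each over all 6 libraries.

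Of 16 other FGF ligands 10 had 0 reads in every library and 1 was tested. This was Fgf11, which belongs to the FGF homologues that stay inside the cell, at 0.655 ± 0.0414 RPKM in EPZ6438 and 0.436 ± 0.0794 RPKM in DMSO (log2 difference 0.50, SE 0.18, limma adjusted p = 0.158).

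All 20 genes of the signal relay from receptor to ERK were tested, with no rise, 1 fall and a median log2 change of -0.04. The fall was Map2k1, the kinase MEK1 that activates ERK, with 15.9, 15.7 and 17.4 RPKM in EPZ6438 against 20.2, 21.2 and 21.0 RPKM in DMSO (log2 change -0.35, SE 0.08, limma adjusted p = 0.0435). It was lost in 8 of 14 alternatives, with an adjusted p of 0.0697 to 0.200 when any EPZ6438 library or DMSO library 2 or 3 was left out. Frs2, the adaptor bound by all FGF receptors and named here after its values were seen, averaged 21.0 ± 2.06 RPKM in EPZ6438 and 15.6 ± 1.24 RPKM in DMSO and did not pass (log2 difference 0.42, limma adjusted p = 0.0642). Nor did 2 others named in the same way, Gab2 (0.72, limma adjusted p = 0.0501) and Mapk3 (-0.31, limma adjusted p = 0.0756). Without overlap between the arms, 2 of the 20 relay genes were higher in EPZ6438 and 4 were lower. Over all tested genes these shares were 12% and 14.7%.

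Of 16 feedback and target genes of FGF and ERK signalling 15 were tested, with 1 rise, 1 fall and a median log2 change of -0.15. Spry1, which encodes the feedback inhibitor Sprouty1, rose, with 4.35, 4.00 and 3.52 RPKM in EPZ6438 against 2.03, 2.15 and 2.16 RPKM in DMSO (log2 change 0.87, SE 0.13, limma adjusted p = 0.0090). It passed in 13 of 14 alternatives and was lost without DMSO library 2 (adjusted p = 0.0514). Spred3, a relative of the Sproutys, fell, with 0.823 ± 0.0197 RPKM in EPZ6438 and 1.37 ± 0.158 RPKM in DMSO (log2 change -0.66, SE 0.15, limma adjusted p = 0.0433), a call lost in 9 of 14 alternatives, with an adjusted p of 0.0782 to 0.178 when any EPZ6438 library or DMSO library 2 or 3 was left out. The members that moved did not go one way, and other feedback genes did not pass: Dusp6, the ERK phosphatase that is a usual readout of FGF signalling, averaged 3.91 ± 0.466 RPKM in EPZ6438 and 4.01 ± 0.328 RPKM in DMSO (log2 difference -0.04, limma adjusted p = 0.912), and Etv5, an ETS factor downstream of ERK, averaged 2.46 ± 0.298 RPKM in EPZ6438 and 3.40 ± 0.0205 RPKM in DMSO (log2 difference -0.46, limma adjusted p = 0.0850). Both were named after their values were seen.

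**Figure D3:**
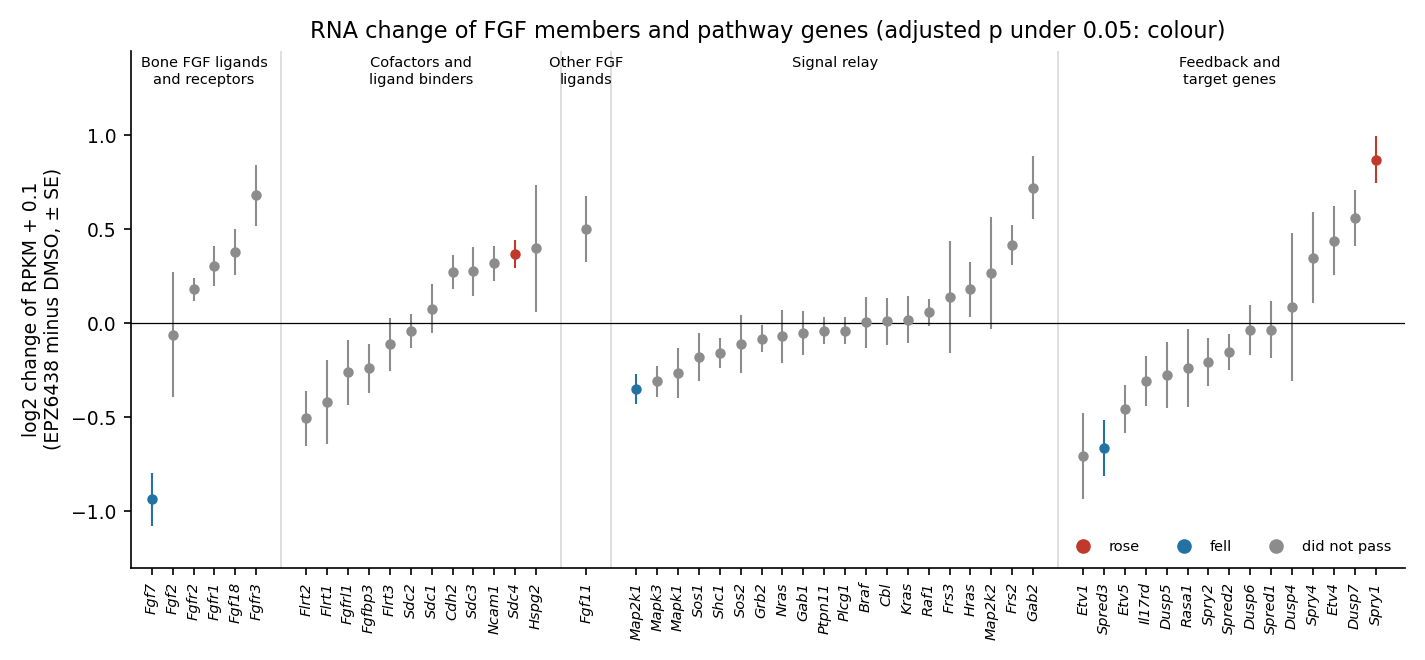
Log2 change of RPKM + 0.1, EPZ6438 minus DMSO, with its standard error, for the 6 tested FGF genes and the tested genes of each pathway list, ordered by size within a list. Fgf7 at -0.94 is the lowest of all genes drawn and Spry1 at 0.87 the highest; coloured points passed the adjusted limma threshold (red rose, blue fell) and grey ones did not.

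By the correlation of log2(RPKM + 0.1) over the 6 libraries, among 12142 tested genes of at least 1 RPKM on average, the genes most like Fgf7 were Tpbg (Pearson r = 0.998), Fam105a (r = 0.998) and Wipf2 (r = 0.997). The 6 points share the 2 arms, and the values are a description. Tpbg, a membrane protein, averaged 2.21 ± 0.130 RPKM in EPZ6438 and 3.39 ± 0.444 RPKM in DMSO (log2 difference -0.59, limma adjusted p = 0.0524). Fam105a averaged 8.77 ± 0.441 RPKM in EPZ6438 and 12.6 ± 1.11 RPKM in DMSO and fell (log2 change -0.51, limma adjusted p = 0.0267), a call lost without any EPZ6438 library or without DMSO library 2 (adjusted p of 0.0743 to 0.137). Wipf2, a partner of the actin regulator WASP, averaged 3.51 ± 0.0314 RPKM in EPZ6438 and 3.92 ± 0.112 RPKM in DMSO (log2 difference -0.15, limma adjusted p = 0.460).

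H3K27me3 peaks covered 11.6 Mb in the merged EPZ6438 list (20764 peaks) and 89.4 Mb in the merged DMSO list (143399 peaks). In the window of a gene plus 10 kb on each side, 2 of the 10 genes held an H3K27me3 peak in EPZ6438 and 7 in DMSO, against 17% and 55.7% of all genes. Among protein-coding genes whose span lies between 8507 and 122325 bases, the range of the members other than Fgfr2, these shares were 22.3% and 67.4%, so 7 of 10 is near the background. Of the 10 genes 5 had a peak in DMSO and none in EPZ6438, against 38.9% of all genes and 45.2% of those of like span. There is 1 list per mark and arm, with no height or score and no replicate, so none of these differences has a test, and the width of a peak depends on how each list was called.

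**Figure D4:**
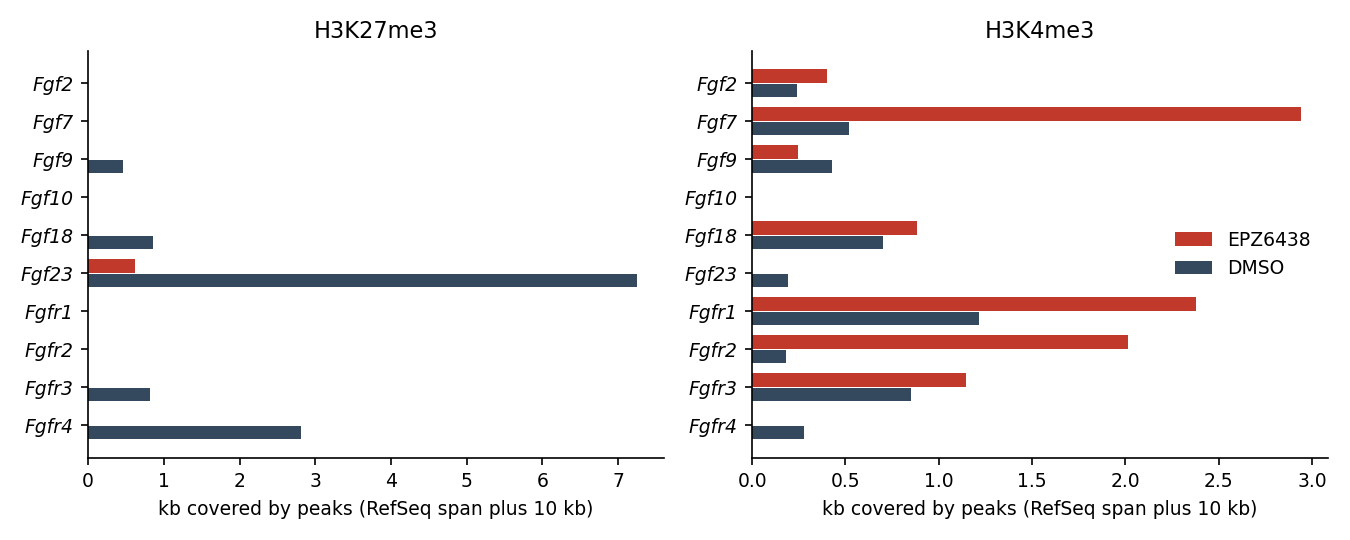
Kilobases covered by H3K27me3 peaks (left) and H3K4me3 peaks (right) in the RefSeq span of each gene plus 10 kb, with EPZ6438 in red above DMSO in blue. H3K27me3 is drawn for 5 genes in DMSO, led by Fgf23 with 7243 bases, and for Fgf23 alone in EPZ6438, with 623 bases, while Fgf7, Fgfr1 and Fgfr2 have the longest H3K4me3 in EPZ6438.

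With Fgfr2 taken by its RefSeq span, Fgf23, a ligand with 0 reads, had the longest listed H3K27me3 in its window, flanks included, of the 10 genes in each arm. In DMSO 7 peaks covered 7243 bases, or 25.4% of its window, from chr6:127065347-127067544 upstream to chr6:127090091-127091095 beyond its end, and the nearest one before the start site ended 870 bases from it. Only 1 of these peaks, of 743 bases, lay over the gene, and the others lay in its flanks. Those at chr6:127088430-127088776 and chr6:127090091-127091095 overlapped another gene of the table, 9630033F20Rik. In EPZ6438 1 peak of 623 bases was listed, chr6:127077613-127078235 inside the gene, and it overlaps a DMSO peak of 743 bases. Fgf23 had 0 reads in both arms. Fgfr4 had no peak in EPZ6438 and 5 peaks of 2811 bases in all in DMSO, 3 of them over the gene, and its reads stayed near 0 in both arms. Fgf9 had none in EPZ6438 and 2 short peaks in DMSO, 457 bases in all, the closer one 1345 bases before its row in the table.

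Of the 6 tested genes, none had an H3K27me3 peak in the EPZ6438 list when Fgfr2 was taken by its RefSeq span. In DMSO the median length listed in a window was 213 bases for all genes and 709.5 bases for protein-coding genes of like span, and Fgf18 and Fgfr3 lay above both. Fgf18 had none in EPZ6438 and 2 peaks of 857 bases in all in DMSO, both 3257 bases or more beyond the 3′ end. Fgfr3 had none in EPZ6438 and 1 peak of 819 bases in DMSO, chr5:33712202-33713020, 8704 bases before the start site. Fgfr1 had none in EPZ6438 and 1 peak of 168 bases in DMSO, 8141 bases outside the table's span and outside the RefSeq window. Fgf7, the gene that fell, Fgf2 and the undetected Fgf10 had none in either list. Fgfr2 counted among the genes with a peak only through its long row, with 4856 bases in EPZ6438 and 81372 bases in DMSO: within 10 kb of its RefSeq span there was none in either arm.

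H3K4me3 peaks were fewer and wider in EPZ6438, with 16216 peaks of median width 401 bases there and 40113 peaks of median width 212 bases in DMSO. Of the 10 genes 7 held one in their window in EPZ6438 and 9 in DMSO, against 34.3% and 45% of all genes and 61.7% and 68.9% of protein-coding genes of like span. With peaks of at least 400 bp this was 6 in EPZ6438 and 3 in DMSO, and within 1 kb of gene ends 5 in EPZ6438 and 4 in DMSO. The shares of all genes under these 2 settings were not computed, so their counts are not read as a result about the group. In 2 of the 10, Fgf23 and Fgfr4, a peak was in the DMSO list and none in the EPZ6438 list, against 16.2% of all genes and 16.4% of those of like span. In 6 of the 10 the covered length was greater in EPZ6438, against 28.4% of all genes and 51.1% of those of like span. Within 1 kb of the start site, 30.7% of 32851 RefSeq start sites had H3K4me3 in EPZ6438 and 23.9% in DMSO. At the 7058 start sites with H3K4me3 in both, the covered length was greater in EPZ6438 at 90.0%, with medians of 781 bases in EPZ6438 and 397 bases in DMSO and a median ratio of 1.75.

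At Fgf7 4 H3K4me3 peaks covered 2939 bases in EPZ6438, and the first, chr2:126034613-126036080, holds the start site and the last 45 bases of the promoter stretch printed above. In DMSO 2 peaks covered 522 bases, and the nearer, chr2:126035232-126035572, begins 574 bases after the start. Within 1 kb of the start this was 1046 bases in EPZ6438 and 341 bases in DMSO, a ratio of 3.07, and 82.3% of the start sites with the mark in both lists had a lower ratio. Fgf7 RNA was lower in the arm in which the listed H3K4me3 was longer.

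At Fgf18 a single EPZ6438 peak of 885 bases, chr11:33147236-33148120, covers the start site and all 250 printed bases, whereas in DMSO a peak of 177 bases lay 411 bases before the start and one of 295 bases 727 bases after it, with none over the start. The ratio within 1 kb was 1.96, from 885 bases in EPZ6438 and 451 bases in DMSO, and 58.1% of start sites had a lower one. At Fgfr3 1 peak lay over the start site in each arm, of 1146 bases in EPZ6438 and 851 bases in DMSO, and covered 124 of the 250 printed bases in EPZ6438 and 32 in DMSO. Its ratio of 1.32 is below the median of all start sites. At Fgf2 the start site lay in a peak of 401 bases in EPZ6438 and 241 bases in DMSO, and the 2 other EPZ6438 peaks in its window lie at the starts of its neighbours Cetn4 and Bbs12.

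Fgfr1 held 1 H3K4me3 peak of 2381 bases in EPZ6438, chr8:25518826-25521206, which overlaps both DMSO peaks of 949 and 268 bases. Fgfr2 held 3 peaks of 2015 bases in all near its RefSeq start in EPZ6438, the widest beginning 510 bases after it, and 1 peak of 181 bases in DMSO. At Fgf9 the length listed in the window was shorter in EPZ6438, with 247 bases in EPZ6438 and 428 bases in DMSO. The DMSO length includes a peak of 226 bases outside the gene that overlaps an H3K27me3 peak. The Fgf9 peak found in both arms was 247 bases wide in EPZ6438 and 202 bases in DMSO. Within 1 kb of the Fgf9 start site it covered 126 bases in EPZ6438 and 165 bases in DMSO. Fgf23 and Fgfr4 had no H3K4me3 peak in EPZ6438 and 1 each in DMSO, of 195 and 280 bases, and Fgf10 had none in either.

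**Figure D5:**
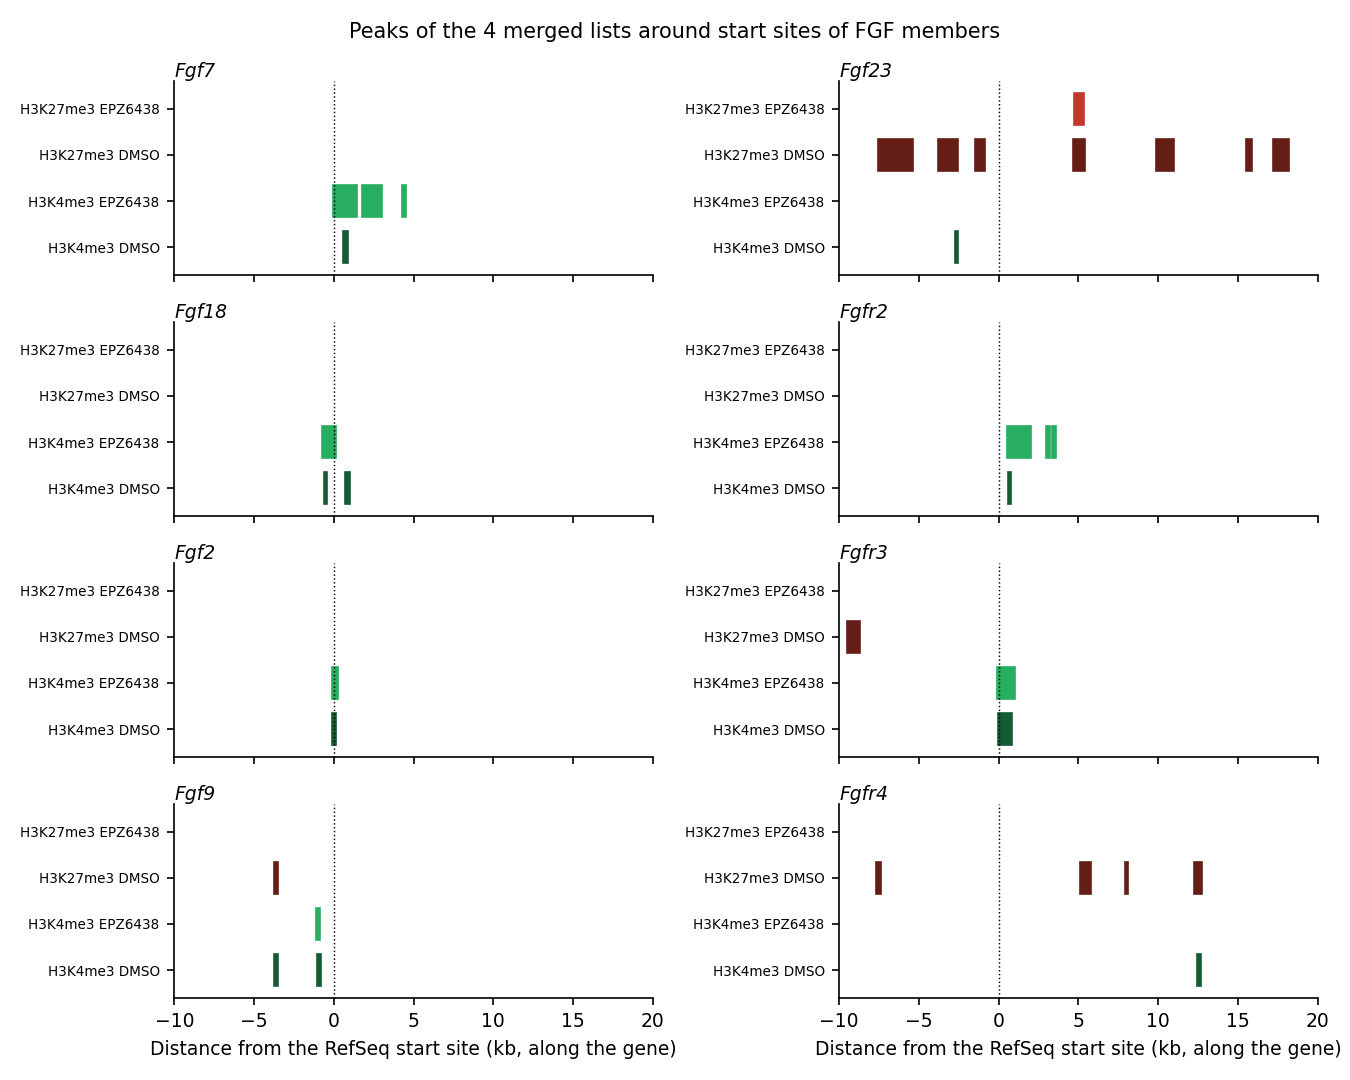
Peaks of the 4 merged lists from 10 kb before to 20 kb after the RefSeq start site of 8 of the genes, along the direction of the gene, with the start site dotted and 1 row per mark and arm, EPZ6438 above DMSO. The H3K27me3 blocks of Fgf23 and Fgfr4 in DMSO are absent from the EPZ6438 row but for 1 Fgf23 peak, and the H3K4me3 blocks of Fgf7, Fgf18 and Fgfr2 are longer in EPZ6438; peaks farther away are not drawn.

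With Fgfr2 taken by its RefSeq span, in 4 of the 10 genes an H3K4me3 peak of the EPZ6438 or DMSO list overlapped an H3K27me3 peak of the same arm, all 4 in DMSO: 0.272% of all genes and 0.278% of those of like span had such a pair in EPZ6438, and 18.8% and 25.6% had one in DMSO. They were chr14:58068963-58069188 before Fgf9, chr11:33110621-33110849 beyond the end of Fgf18, chr6:127070168-127070362 before Fgf23 and chr13:55165242-55165521 inside Fgfr4. Each was 195 to 280 bases wide, none lay at a start site, and none overlapped a peak of either mark in EPZ6438. Such overlap was common in the DMSO list as a whole: 48.0% of its 40113 H3K4me3 peaks overlapped an H3K27me3 peak, against 0.968% of the 16216 in EPZ6438. The only listed H3K4me3 peaks of Fgf23 and Fgfr4 were among these 4, so they are not read as a feature of these genes.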

How the data were processed

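The authors deposited expression as RPKM, per the file headers, for 43346 genes with their positions and lengths. For each mark and arm the file names record 1 merged list against input, in which the authors deposited other values only as peak starts and ends. Per the submitters' processing notes the build was mm10 and the software included STAR 2.6.1c, MACS2, HOMER, DiffBind, Subread, Picard, FastQC and bcl2fastq, with no role given; thresholds, annotation and strandedness were not given in the sources used here. Table columns were matched to libraries by arm and number, MC1 to MC3 being read as replicates 1 to 3.

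RPKM steps gave whole reads for 100% of values (tolerance 0.001), so each library's depth is known; 3 reads correspond to 0.118 to 0.160 CPM. The 37 chrMT genes, at 0 throughout, were left out. Since the deposited unit is RPKM, the count test was not the main test: genes with at least 10 reads in at least 3 libraries were fitted with limma 3.58.1 in R 4.3.3 on log2(RPKM + 0.1), a scale that understates changes of low genes, with p adjusted over 14213 genes. The fit was tested on simulated data. Receptor shares were compared with exact permutation tests over libraries. Python 3.11.15 with pandas 2.3.3 and numpy 2.4.6 counted peaks that shared 1 bp or more with a window, and exact tests used scipy 1.17.1; figures were drawn with matplotlib 3.10.9. RefSeq GRCm38.p6 gave start sites and promoter windows. No library was a copy of another: between replicates chi-square per gene was 6.47 to 61.7. The highest value was that of DMSO libraries 1 and 3, and the next, 22.9, that of EPZ6438 libraries 1 and 2.

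The genes and lists were chosen with earlier results of these data known. Named were all 10 genes, up to 5 passing genes of each pathway list by adjusted p (or its most abundant tested gene), the 3 genes most like the gene of smallest p, and Runx2, Sp7 and Col1a1; further marker genes are named as members of their lists. Other names, among them Kl, Klb, Frs2, Gab2, Mapk3, Dusp6, Etv5 and the genes that overlap or neighbour the FGF genes, were chosen after their values were seen. Alternatives were no filter, a filter of 1 RPKM, pseudocounts of 0.01, 0.5 and 1 RPKM, median-of-ratios scaling, voom on recovered reads, a replicate block, leaving out each library, and other windows, overlaps and peak widths.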

Additional observations from a re-analysis of the deposited data

How the results depend on the processing

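Fgf7 kept its direction under all 14 alternatives, with log2 changes of -1.08 to -0.82 when single libraries were left out, and Fgf18, Fgfr1, Fgfr2 and Fgfr3 kept theirs too. Fgfr3 reached the threshold with voom (log2 change 0.68), and without single libraries its change ran from 0.52 to 0.82. Fgf2 reversed without EPZ6438 replicate 2 (0.24) and without DMSO replicate 1 (0.15), within a range of -0.29 to 0.24. The Fgfr1 share difference ran from -0.29 to 2.53 points when single libraries were left out, and reversed without DMSO replicate 1; the cause was not tested. The count of FGF genes that rose was 1 with voom and 0 to 1 without single libraries, and the count that fell was 0 to 1. Pathway genes that rose numbered 1 with no filter, 4 with median-of-ratios scaling, 5 with voom and 0 to 2 without single libraries. Those that fell numbered 0 with no filter, 1 with the 1 RPKM filter, 0 with median-of-ratios scaling and 0 to 3 without single libraries. Calls over all tested genes numbered 1001, against 628 with no filter, 1168 with voom on recovered reads and 309 to 1003 without single libraries, where fewer samples enter the fit. With median-of-ratios scaling Fgf7 had a log2 change of -0.90. With the 1 RPKM filter Fgf2 and Fgf11 were not tested.

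Same-numbered libraries of the arms deviated together with correlations of 0.41, 0.08 and 0.06, and DMSO library 3 correlated best with EPZ6438 library 2 (0.33). The numbers were therefore not taken to pair the samples in the main test. With 3 libraries per arm these correlations cannot exclude pairing, and the columns of both arms carry the same numbers, MC1 to MC3. The replicate block gave 1051 calls over all genes, 1 FGF gene that rose (Fgfr3, log2 change 0.68, limma adjusted p = 0.0236) and 0 pathway genes that fell.

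FGF genes with an H3K27me3 peak numbered 0 in EPZ6438 and 1 in DMSO within 1 kb of gene ends, 3 in DMSO for the gene body alone, and 1 in EPZ6438 for the RefSeq span plus 10 kb, a window chosen after seeing the data. Those with an H3K4me3 peak numbered 5 in EPZ6438 and 4 in DMSO within 1 kb of gene ends, and 6 in EPZ6438 and 3 in DMSO with peaks of at least 400 bp, which turns round the order of 7 in EPZ6438 and 9 in DMSO. The shares of all genes under these other settings were not computed, so the counts are not read as a result about the FGF genes. Genes at 0 to 5 reads per library were below what this depth can compare.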

Other observations

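In the 10 promoter windows 3 short motifs were searched on both strands: TGTGGT, the core of RUNX motifs, held by 16.8% of all windows, CTTTGA, the core of TCF and LEF motifs, held by 16.0%, and TATAAA, held by 13.6%. The search gave 1 match, CTTTGA in the Fgf23 window, 99 bases before the start site. The highest ratios of observed over expected CG after Fgf18 belonged to Fgf9 (0.880) and Fgf2 (0.842), and the lowest to Fgfr2 (0.282), whose 2 arms both had H3K4me3 beginning beyond the RefSeq start.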
